A study of Rattus norvegicus with 38 samples.

Results

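The smoke response of low capacity runners was read from the lungs of female N:NIH rats of the LCR line, bred for low intrinsic exercise capacity. Its members are 12 arrays of animals that breathed cigarette smoke and 7 arrays of animals that breathed room air (sham), which makes 19 of the 38 arrays of the study. The arrays were chosen by their titles. All animals were 34 weeks old, exposure ran on 5 days per week, lungs were collected at 12 weeks, and each animal's RNA, from about 25 mg of tissue, was hybridised to its own Affymetrix Rat Genome 230 2.0 array. The labels of LCR sham 0445 give the tissue but no strain, age or sex of their own. The other arrays are 7 sham and 12 smoke animals of the sister line bred for high capacity (HCR), of the same age, sex, stock and exposure, and are used here only where the responses of the lines are compared. Females of a single age and a single time point were sampled.

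Cigarette smoke carries polycyclic aromatic hydrocarbons, electrophiles, metals and particles. Aromatic hydrocarbons bind the aryl hydrocarbon receptor (AhR), which pairs with Arnt and induces cytochrome P450 genes of family 1, and electrophiles release the transcription factor NRF2 (Nfe2l2) from Keap1, which raises glutathione and NADPH synthesis. Particles are taken up by alveolar macrophages, and irritated epithelium and macrophages release chemokines that draw neutrophils, whose proteases, with those of macrophages, are linked to loss of alveolar walls in emphysema.

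Levels are intensities on the deposited linear scale. A change is the mean log2(intensity + 16) of the smoke arrays minus that of the sham arrays, given ± its standard error from limma, so that a change of 1 is a doubling well above the added 16, and the change of a dim gene is understated. A gene "rose" or "fell" where its Benjamini-Hochberg adjusted p over the 14217 genes was under 0.05. Intensities of different probe sets cannot be set against each other. In whole lung, fewer cells of a type and less RNA per cell cannot be told apart.

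Smoke and sham arrays differed in overall measures. The median log2 value was 5.98 ± 0.0296 (SD, n = 12) on smoke arrays and 6.03 ± 0.0186 (SD, n = 7) on sham arrays (exact permutation test, two-sided, adjusted over 4 measures, p = 0.000476). The interquartile range (exact p = 0.00317) and the 3' minus 5' signal differences of Actb (exact p = 0.00103) and Gapdh (exact p = 0.00631), which rise as RNA degrades, were likewise lower on smoke arrays, and their part in the results was tested only as covariates. Heart muscle genes stood out on single arrays. Their list mean was 4.20 log2 above the mean of all arrays on LCR sham 0442, 0.85 on LCR sham 0440 and 0.60 on LCR smoke 0420. The cardiac myosin gene Myh6 read 3467 on the highest sham array and had a median of 11.2 on sham and 7.31 on smoke arrays. LCR sham 0442 also had the highest sham means of the club (0.79), ciliated (0.79), mucous (0.55), smooth muscle (0.70) and B cell lists (0.63). Results that change without these arrays are given both ways. Lung was borne out as the tissue by surfactant protein C (Sftpc), read at 9829.9 to 10919 on all 19 arrays.

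**Figure D1:**
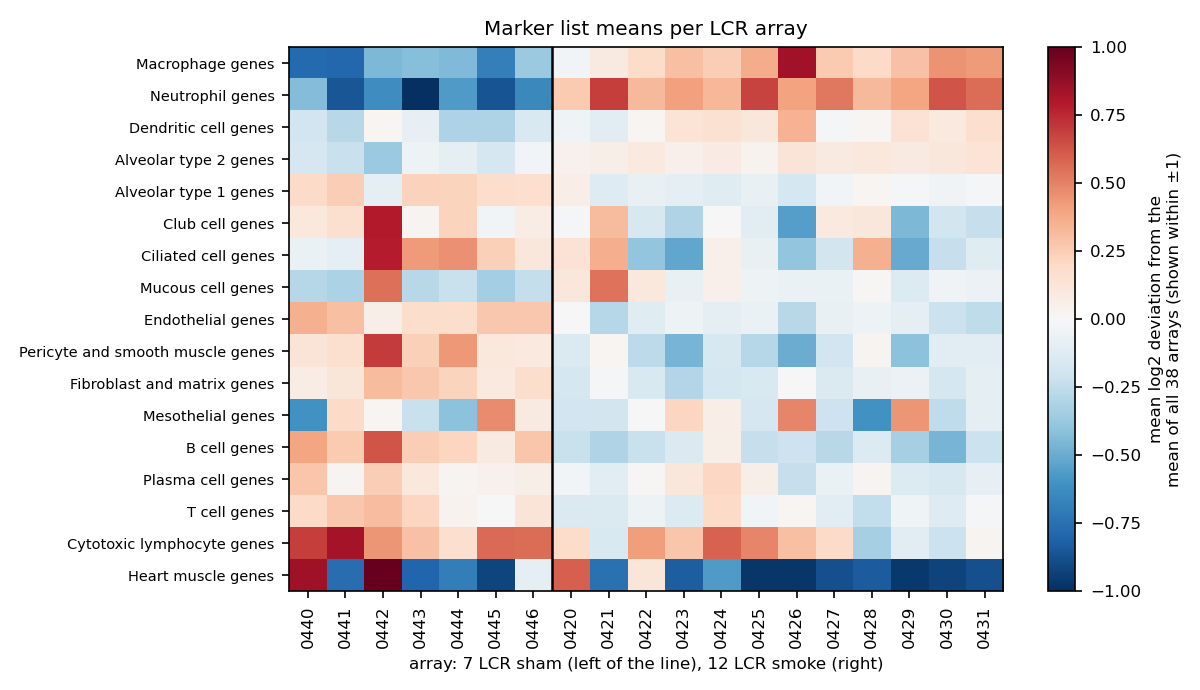
Mean log2 deviation of marker gene lists (rows) from the mean of all 38 arrays, on each LCR array (columns, 7 sham left of the line and 12 smoke right of it), with colours held within ±1. Macrophage and neutrophil list means were below 0 on every sham array, and LCR sham 0442 stands apart for heart muscle (4.20), club and ciliated cell genes.

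About as many genes passed between smoke and sham arrays as did not. Each group holds its own run of array numbers, so a batch in that order cannot be told apart from exposure. Of 14217 genes, 7193 (50.6%) passed, 3225 (22.7%) higher and 3968 (27.9%) lower, with a median change over all genes of -0.0046. Most called changes were small. A change of at least 1.5-fold was reached by 742 genes (5.22%), 407 (2.86%) higher and 335 (2.36%) lower, and at least 2-fold by 158 (1.11%), 130 (0.914%) higher and 28 (0.197%) lower. With 1 in place of 16 added before the logarithm, 1169 and 259 genes reached these sizes. In 839 genes (5.9%) every smoke array lay above every sham array, and in 1216 (8.55%) below. The counts of list members given below are to be read beside these shares of all genes. The largest rise was 7.13 (Cyp1a1) and the largest fall -1.82 (Bank1). Genes that rose made up 44.8% of the calls, and 61.9% when each array was centred on its median, so the balance of small rises and falls depends on the scaling.

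**Figure D2:**
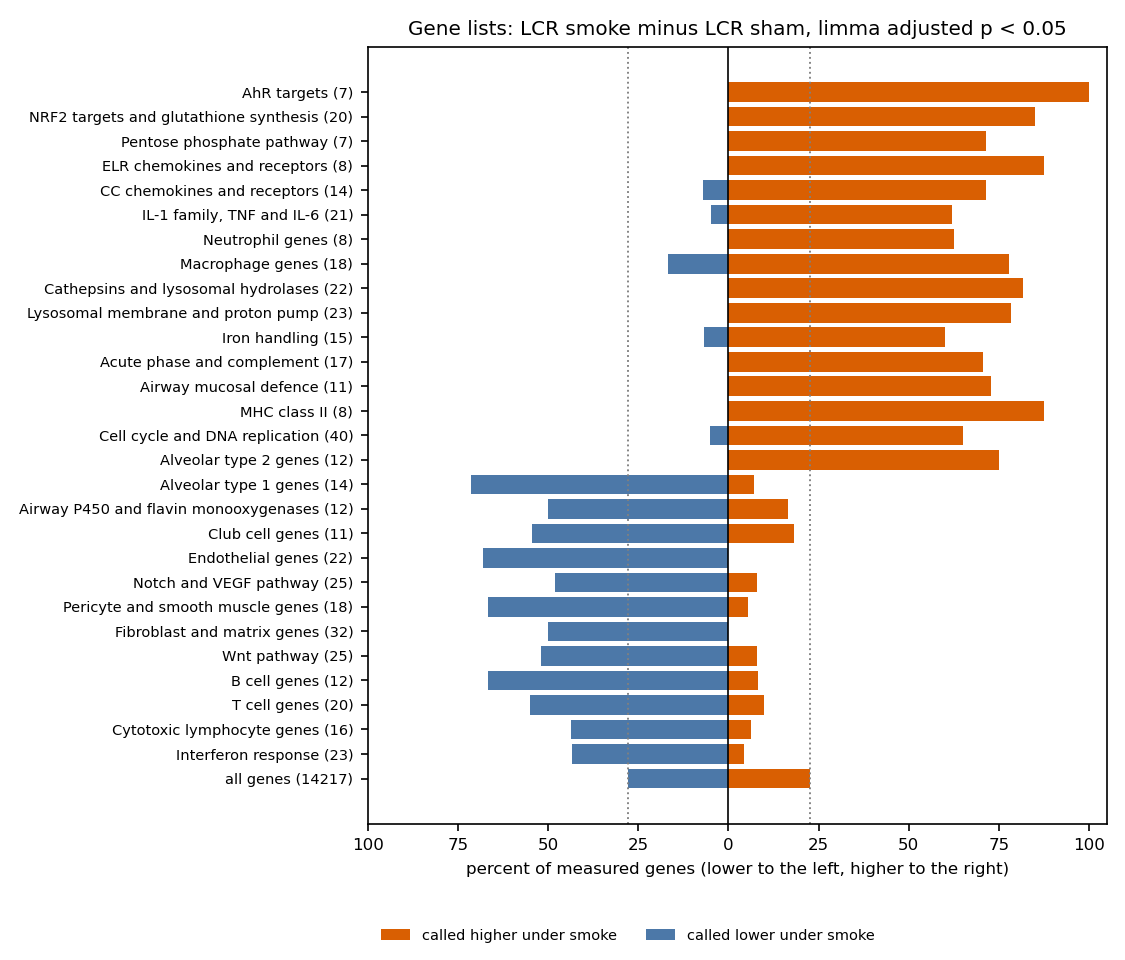
Percent of the measured genes of each list (number in brackets) that passed at adjusted p under 0.05, higher (right) or lower (left) on LCR smoke arrays, with dotted lines at the shares of all genes (22.7% higher, 27.9% lower). Xenobiotic, chemokine, macrophage and lysosome lists reach to the right, and endothelial, smooth muscle, matrix and lymphocyte lists to the left.

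Targets of the aryl hydrocarbon receptor rose, and Cyp1a1 rose more than any other gene. All 7 measured members of the list rose, with a median of 2.11. Cyp1a1, which oxidises aromatic hydrocarbons, read 5.96 to 54.7 (median 10.7) on sham arrays and 3538 to 4732 (median 4406) on smoke arrays, a change of 7.13 ± 0.14 (adjusted p = 3.18e-31). The groups were far apart, and the dimmest smoke array exceeded the brightest sham array many times over. Cyp1b1, its extrahepatic relative, ran from 90.5 to 198 (median 125) under sham and from 583 to 2392 (median 1603) under smoke, a change of 3.39 ± 0.25 (adjusted p = 1.06e-12). The aldehyde dehydrogenase Aldh3a1 lay between 28.0 and 39.7 (median 31.7) on sham arrays and between 303 and 1314 (median 587) on smoke arrays, a change of 3.66 ± 0.24 (adjusted p = 5.49e-14), and these groups did not overlap either.

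Ahrr encodes the receptor's repressor, itself a target of the receptor, and it read 4.97 to 11.3 (median 7.15) on sham arrays and 57.0 to 134 (median 87.1) on smoke arrays, a change of 2.11 ± 0.11 (adjusted p = 1.5e-16). The quinone reductase Nqo1, shared with NRF2, ran from 749 to 1131 (median 893) under sham and from 2972 to 4893 (median 3575) under smoke, a change of 1.98 ± 0.12 (adjusted p = 3.21e-15). In both genes every smoke array was above every sham array. Tiparp, an ADP-ribosyltransferase that restrains the receptor, changed far less (0.28 ± 0.084), and its groups overlapped. Cyp1a2, a mainly hepatic P450, was dim on all arrays (medians 9.34 and 11.6). Its change of 0.14 ± 0.048 passed (adjusted p = 0.0182) but lost its call with quantile normalization (adjusted p = 0.0622), with the interquartile range as covariate (0.632), without LCR sham 0440 (0.0537) and without the 3 arrays with heart muscle signal (0.0665).

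The receptor with Arnt binds DNA at a core of GCGTG. Among promoter windows of RefSeq (build GRCr8, 250 bases before to 50 after the start, both strands searched), 31.1% of 27457 held the core. Of the 7 listed targets, 5 had a window and 4 of these held it (Cyp1b1, Ahrr, Tiparp and Nqo1). So did 11 of 17 windows of NRF2 targets, 7 of 16 of clock genes and 1 of 6 of ELR chemokine and receptor genes. The 200 bases before the start of Ahrr (chr1:30822019-30822218, plus strand) and of Cyp1b1 (chr6:21094365-21094564, plus strand) are shown 5′ to 3′ because these targets rose most among those with a window, with the core of either strand in capitals. A match describes the letters and is not a measured site. Of windows of this length, 23.8% held the core.
Ahrr: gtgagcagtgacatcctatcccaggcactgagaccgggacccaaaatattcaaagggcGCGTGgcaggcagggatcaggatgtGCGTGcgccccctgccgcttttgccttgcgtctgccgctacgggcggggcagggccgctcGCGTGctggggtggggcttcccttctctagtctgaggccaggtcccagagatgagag
Cyp1b1: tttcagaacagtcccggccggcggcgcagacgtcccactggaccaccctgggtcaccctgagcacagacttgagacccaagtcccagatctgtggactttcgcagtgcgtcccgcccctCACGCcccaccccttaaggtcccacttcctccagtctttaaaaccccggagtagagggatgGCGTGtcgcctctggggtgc
In Ahrr the core began -142, -117 and -57 bases from the start, and in Cyp1b1 -81 bases from it on the opposite strand and -20 on the same strand.

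Glutathione and thioredoxin genes controlled by NRF2 rose as a group. Of 20 measured targets, 17 rose and the others did not pass. The median change was 0.72. The cystine importer Slc7a11 lay between 6.90 and 11.1 (median 8.50) on sham arrays and between 41.5 and 539 (median 95.1) on smoke arrays, a change of 2.44 ± 0.43 (adjusted p = 1.5e-05). Smoke arrays spread widely for it and yet did not overlap the sham arrays. Haem oxygenase 1 (Hmox1) read 160.0 to 222 (median 204) on sham arrays and 547 to 2146 (median 782) on smoke arrays, a change of 2.05 ± 0.28 (adjusted p = 1.88e-07). Sulfiredoxin (Srxn1), which restores oxidised peroxiredoxins, ran from 62.2 to 81.3 (median 76.9) under sham and from 188 to 750.2 (median 349.9) under smoke, a change of 2.05 ± 0.27 (adjusted p = 1.35e-07), but by 1.28 ± 0.18 when its 3 probe sets were averaged. Thioredoxin reductase Txnrd1 rose by 1.22 ± 0.14, and the subunits of glutamate-cysteine ligase, the limiting enzyme of glutathione synthesis, by 1.41 ± 0.25 (Gclm) and 1.11 ± 0.17 (Gclc).

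Among the regulators, 6 of 9 rose. Nfe2l2 itself lay between 1059 and 1169 (median 1137) on sham arrays and between 1671 and 1905 (median 1762) on smoke arrays, a change of 0.66 ± 0.042 (adjusted p = 2.7e-14), with narrow and separate groups. The small Maf partner Maff rose by 1.23 ± 0.12. Pentose phosphate pathway genes and malic enzyme followed the same direction. In the pentose phosphate pathway 5 of 7 members rose, among them phosphogluconate dehydrogenase Pgd (0.64 ± 0.12), transketolase Tkt (0.54 ± 0.079) and transaldolase Taldo1 (0.47 ± 0.068), and malic enzyme Me1 rose by 0.85 ± 0.15. Noxo1, the organiser subunit of the NADPH oxidase Nox1, read 41.7 to 91.0 (median 57.2) on sham arrays and 239 to 448 (median 328) on smoke arrays, a change of 2.26 ± 0.16 (adjusted p = 6.84e-13), and by 1.16 ± 0.085 with its 2 probe sets averaged.

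NRF2 pairs with small Maf proteins on the antioxidant response element, whose core is TGACNNNGC. It was found in 12.2% of all windows and in 3 of the 17 listed targets that had one (Gclm, Me1 and Gpx2), beside 2 of 16 clock gene, 0 of 5 AhR target and 0 of 6 ELR gene windows. The 200 bases before the start of Gclm (chr2:213031935-213032134, plus strand) are shown as the example in the limiting enzyme, with the core, which lies on the opposite strand -172 bases from the start, in capitals. Of windows of this length, 8.54% held it.
Gclm: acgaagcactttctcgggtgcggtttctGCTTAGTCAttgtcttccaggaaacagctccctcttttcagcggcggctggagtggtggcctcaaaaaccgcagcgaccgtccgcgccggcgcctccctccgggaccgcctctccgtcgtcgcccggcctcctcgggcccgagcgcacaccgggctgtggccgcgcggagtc

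Glutathione S-transferases, which attach glutathione to electrophiles, moved in both directions. Of 18 members 7 rose and 5 fell, beside 22.7% and 27.9% of all genes. The share that fell was thus near that of all genes. Gsta3 ran from 40.2 to 129 (median 56.7) under sham and from 93.2 to 472 (median 226) under smoke, a change of 1.69 ± 0.32 (adjusted p = 3.71e-05), with overlap between the groups, and the microsomal Mgst2 rose by 0.59 ± 0.051. Gstm7 (-0.66 ± 0.089) and Gstk1 (-0.46 ± 0.058) fell, with no overlap in either. The count of falls was 3 on median-centred arrays, 3 without LCR sham 0442, and 2 with the interquartile range as covariate. Of 14 metallothionein and zinc transporter genes, 7 rose and the others did not pass. Metallothionein Mt2A, which binds zinc and cadmium, lay between 72.9 and 111 (median 86.5) on sham arrays and between 432 and 1197 (median 713) on smoke arrays, a change of 2.83 ± 0.22 (adjusted p = 4.57e-12), and the groups were fully separate.

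**Figure D3:**
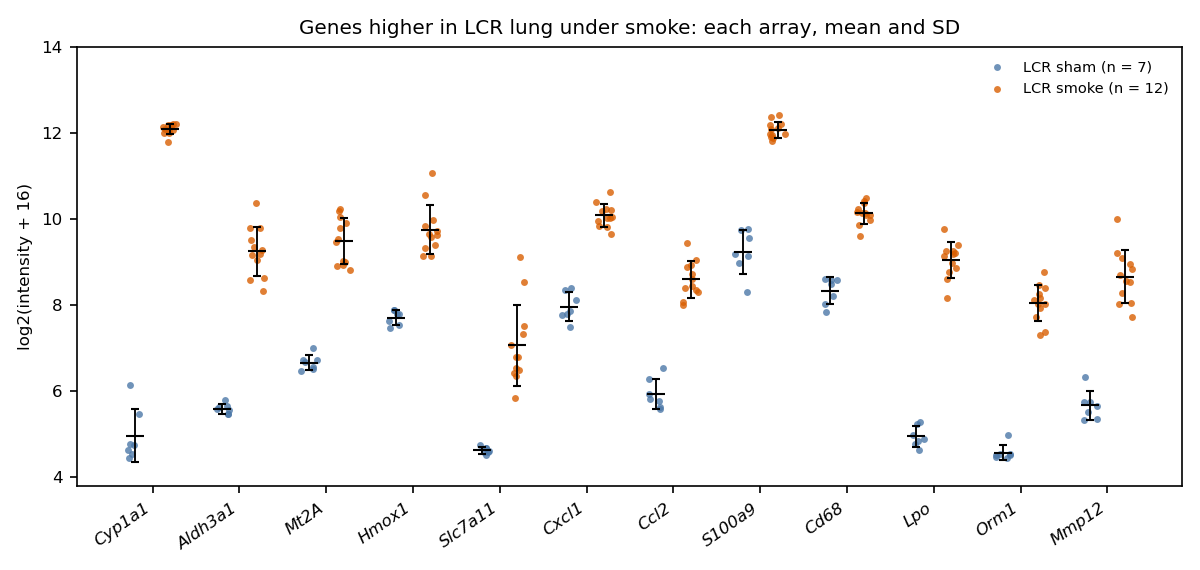
Log2(intensity + 16) on each of the 7 LCR sham and 12 LCR smoke arrays for 12 genes that rose, with the group mean and SD as bars. Smoke arrays lie above sham arrays in all 12, from Cyp1a1 (7.13) to Cd68 (1.80), and Slc7a11 has the widest spread among smoke arrays.

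Other P450 genes of the airway fell. In the list of airway P450 and flavin monooxygenase genes, 6 of 12 fell and 2 rose. Cyp4b1, which is rich in lung, read 2348 to 3115 (median 2721) on sham arrays and 1270.1 to 1851 (median 1578) on smoke arrays, a change of -0.81 ± 0.091 (adjusted p = 6.58e-09). Fmo1, a flavin monooxygenase, fell (-0.62 ± 0.09), also without overlap, whereas Fmo5 rose by 0.54 ± 0.11. Cyp2f4, a club cell P450, ran from 425 to 1733 (median 732) under sham and from 51.9 to 693 (median 282) under smoke, a change of -1.62 ± 0.47 (adjusted p = 0.00461), with overlapping groups. Cyp2s1 fell (-0.69 ± 0.17). Cyp2a3 had a change of -1.63 ± 0.62 (adjusted p = 0.0288) that lost its call without LCR sham 0440 (adjusted p = 0.065), LCR sham 0441 (0.052), LCR sham 0442 (0.0973), LCR smoke 0426 (0.0535) or LCR smoke 0429 (0.0518). Without the 3 arrays with heart muscle signal it was -1.09 ± 0.68 (adjusted p = 0.195), and the call was also lost with the Gapdh (0.0505) and Actb covariates (0.093).

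Club cells are the secretory cells of rodent airways. Of 11 of their genes 6 fell and 2 rose, and without LCR sham 0442, which had the highest mean of this list, 3 fell. Club cell secretoglobin Scgb1a1 was among the brightest genes, at medians of 10855 and 10056. Its change of -0.073 ± 0.028 (adjusted p = 0.0288) lost its call without any of LCR sham 0442 (adjusted p = 0.0724), 0443 (0.0639), 0444 (0.0552) and 0445 (0.0549), with the Actb covariate (0.0776) and on median-centred arrays (0.726). The upper-airway secretoglobin Scgb3a1 did not pass (-0.87 ± 0.63, adjusted p = 0.255). Retnla, a secreted resistin-like protein counted in the club list and also made by macrophages, lay between 582 and 1893 (median 1325) on sham arrays and between 1907 and 6099.8 (median 4013) on smoke arrays, a change of 1.64 ± 0.45 (adjusted p = 0.00295), without overlap.

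Of 8 ciliated cell genes 3 fell and the others did not pass. Tppp3, a tubulin-binding protein of cilia, read 2889 to 3705 (median 3562) on sham arrays and 1622 to 2647 (median 2031) on smoke arrays, a change of -0.74 ± 0.088 (adjusted p = 1.79e-08). The ciliogenesis factor Foxj1 had a change of -0.34 ± 0.23 and did not pass (adjusted p = 0.203). Of 14 mucous cell genes 5 rose, but 3 rose without LCR sham 0444, LCR smoke 0422 or LCR smoke 0423, and 2 with the interquartile range as covariate. The membrane mucin Muc1, also counted in the list of alveolar type 2 cell genes, rose by 0.59 ± 0.092, without overlap. The gel-forming mucin Muc5ac stayed dim, with medians of 11.5 and 14.3 and a change of 0.18 ± 0.048 (adjusted p = 0.0023). Muc5b read 543 on LCR sham 0442 against a sham median of 50.4, and did not pass (0.095 ± 0.49, adjusted p = 0.888).

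Retinoic acid is made by aldehyde dehydrogenases and degraded by Cyp26 enzymes. Of 16 retinoid genes 7 fell and 3 rose. Cyp26b1 ran from 235 to 504 (median 329.8) under sham and from 56.1 to 126 (median 95.9) under smoke, a change of -1.78 ± 0.18 (adjusted p = 7.75e-10), and no smoke array reached the sham range. Aldh1a3, which forms retinoic acid, fell (-0.92 ± 0.14), and Dhrs3, which returns retinal to retinol, (-0.72 ± 0.083). Rdh10, which makes retinal, rose by 0.59 ± 0.071, or by 0.35 ± 0.042 with its 2 probe sets averaged.

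Chemokines that draw neutrophils rose. Of 8 genes for CXC chemokines with the ELR motif and their receptors, 7 rose. Cxcl1 lay between 165 and 323 (median 215) on sham arrays and between 787 and 1567 (median 1041) on smoke arrays, a change of 2.12 ± 0.16 (adjusted p = 9.06e-13). Cxcl2 read 12.5 to 18.5 (median 16.6) on sham arrays and 74.5 to 186 (median 148) on smoke arrays, a change of 2.29 ± 0.24 (adjusted p = 1.19e-09). Cxcl6 ran from 7.42 to 26.9 (median 10.003) under sham and from 97.7 to 503 (median 179.7) under smoke, a change of 2.83 ± 0.31 (adjusted p = 2.96e-09). Every smoke array was above every sham array for these ligands, which act on Cxcr2. The receptor Cxcr1 rose by 1.09 ± 0.15 and Cxcr2 by 0.36 ± 0.10. Cxcl3 rose by 0.41 ± 0.046 on its brightest probe set and by 1.16 ± 0.12 when its 5 probe sets were averaged. The platelet chemokine Ppbp was the member that did not pass (0.11 ± 0.076, adjusted p = 0.233).

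NF-kB, the factor activated by IL-1, TNF and microbial products, binds a core searched here as GGAANTTCC, which reads the same on both strands. It was rare, in 0.852% of all windows, and was held by 2 of the 6 ELR genes with a window, Cxcl1 and Cxcl6. Both lie on chromosome 14, at chr14:17479322-17479521 and chr14:17596418-17596617 (minus strand), and the 200 bases before their starts are shown to compare the placing of the match, in capitals, which begins -83 and -87 bases from the start. Of windows of this length, 0.59% held it.
Cxcl1: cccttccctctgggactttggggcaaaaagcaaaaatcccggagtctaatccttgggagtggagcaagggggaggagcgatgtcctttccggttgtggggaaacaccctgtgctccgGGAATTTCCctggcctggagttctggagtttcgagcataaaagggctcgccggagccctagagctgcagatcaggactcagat
Cxcl6: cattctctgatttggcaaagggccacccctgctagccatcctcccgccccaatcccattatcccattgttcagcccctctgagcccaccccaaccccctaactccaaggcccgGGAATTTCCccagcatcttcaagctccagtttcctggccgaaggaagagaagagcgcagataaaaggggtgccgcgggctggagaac

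Genes of the neutrophil itself rose in part. Of 8 measured, 5 rose. The calcium-binding calprotectin subunit S100a9 lay between 299.968 and 849.9 (median 569) on sham arrays and between 3601 and 5487 (median 4174) on smoke arrays, a change of 2.84 ± 0.28 (adjusted p = 3.47e-10), and its partner S100a8 rose by 2.40 ± 0.35. Lipocalin Lcn2, which traps bacterial siderophores and is also made by epithelium, read 17.2 to 538 (median 29.3) on sham arrays and 348 to 5754 (median 482) on smoke arrays, a change of 3.17 ± 0.43 (adjusted p = 1.91e-07). LCR sham 0440 held the high sham value of Lcn2 and overlapped the smoke arrays. The list mean was -1.02 to -0.44 on sham and 0.26 to 0.69 on smoke arrays. S100a9, S100a8 and Lcn2 weigh heavily in this mean, as the median change of the 8 genes was only 0.36.

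CC chemokines, which draw monocytes and other leukocytes, rose in 10 of 14 measured genes, and 1 fell. The monocyte chemokine Ccl2 ran from 31.7 to 77.2 (median 40.8) under sham and from 238 to 682 (median 352) under smoke, a change of 2.66 ± 0.29 (adjusted p = 3.27e-09). The related Ccl7 rose by 1.91 ± 0.23 and Ccl3 by 1.31 ± 0.19, all without overlap. Ccl20 rose by 1.23 ± 0.32 with overlap. Membrane-bound Cx3cl1 rose by 0.88 ± 0.089. Of the interferon-induced CXC chemokines 1 of 4 rose, Cxcl11 (0.69 ± 0.13), while Cxcl9 (0.20 ± 0.20, adjusted p = 0.402) and Cxcl10 (0.11 ± 0.21, adjusted p = 0.668) did not pass.

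In the list of IL-1 family, TNF and IL-6 genes 13 of 21 rose and 1 fell. The decoy receptor Il1r2 lay between 13.2 and 26.1 (median 16.4) on sham arrays and between 97.5 and 305 (median 181) on smoke arrays, a change of 2.52 ± 0.26 (adjusted p = 1.4e-09). Tnf read 21.5 to 37.1 (median 25.9) on sham arrays and 73.2 to 147 (median 113) on smoke arrays, a change of 1.58 ± 0.15 (adjusted p = 1.57e-10). Neither gene's groups overlapped. The receptor antagonist Il1rn (0.997 ± 0.15) and Il18 (0.97 ± 0.15) rose without overlap, and Il1b rose by 0.66 ± 0.17 with it. Il33, an alarmin of epithelial and endothelial nuclei, was the member that fell. It ran from 1833 to 2243 (median 2040.0) under sham and from 1023 to 1666 (median 1258) under smoke, a change of -0.68 ± 0.088 (adjusted p = 1.03e-07).

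Macrophage genes rose, with exceptions. Of 18 measured, 14 rose and 3 fell, with a median of 1.04, and the list mean ran from -0.79 to -0.37 on sham and from -0.03 to 0.84 on smoke arrays. The lysosomal glycoprotein Cd68 lay between 212 and 375 (median 345) on sham arrays and between 768 and 1426 (median 1113) on smoke arrays, a change of 1.80 ± 0.16 (adjusted p = 5.16e-11). Gpnmb, a glycoprotein of lipid-laden macrophages, read 1354 to 2784 (median 1787) on sham arrays and 4943 to 6058 (median 5619) on smoke arrays, a change of 1.57 ± 0.13 (adjusted p = 1.46e-11). Trem2, a lipid receptor, rose by 1.92 ± 0.22, osteopontin Spp1 by 1.94 ± 0.31, the chitinase-like Chi3l1 by 1.91 ± 0.19 and the complement subunit C1qb by 1.47 ± 0.12, each without overlap. The members that went against the list included Cd163, the haemoglobin scavenger receptor, and Adgre1 (F4/80). Cd163 ran from 22.7 to 40.4 (median 35.5) under sham and from 11.6 to 33.1 (median 16.7) under smoke, a change of -0.50 ± 0.14 (adjusted p = 0.00292), a call lost with the interquartile range as covariate (adjusted p = 0.0601). Adgre1 fell (-0.45 ± 0.12). Arginase Arg1, outside the list of macrophage genes, rose by 2.15 ± 0.21. Among dendritic cell genes 5 of 9 rose, the integrin Itgax by 1.21 ± 0.17.

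The lysosome rose broadly. Of 22 cathepsins and hydrolases 18 rose, and of 23 genes of its membrane and proton pump 18 rose. Cathepsin K (Ctsk), a collagen- and elastin-cleaving protease, lay between 49.8 and 71.7 (median 66.6) on sham arrays and between 149.6 and 423 (median 264) on smoke arrays, a change of 1.87 ± 0.19 (adjusted p = 1.25e-09). Cathepsin D (Ctsd) read 2007 to 2689 (median 2208) on sham arrays and 3882 to 5073 (median 4393) on smoke arrays, a change of 0.94 ± 0.082 (adjusted p = 3.66e-11). Both sets of arrays were separate. Ctsz (1.11 ± 0.11) and Ctss (0.84 ± 0.083) rose as well. Legumain (Lgmn), which processes other cathepsins, rose by 0.75 ± 0.078, or 0.43 ± 0.046 with its 2 probe sets averaged. Membrane genes changed less. The proton pump subunit Atp6v1b2 rose by 0.69 ± 0.071, the tetraspanin Cd63 by 0.51 ± 0.046 and the lysosomal cholesterol carrier Npc2 by 0.42 ± 0.051. The tartrate-resistant phosphatase Acp5 rose by 1.496 ± 0.12.

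Genes for lipid storage and cholesterol efflux rose in 9 of 17 and fell in 2. The sterol esterifying enzyme Soat1 rose by 0.94 ± 0.10, and the fatty acid carrier Fabp5 ran from 1422 to 1910.1 (median 1576) under sham and from 3245 to 4447 (median 3832) under smoke, a change of 1.21 ± 0.085 (adjusted p = 2.82e-13). Fatty acid synthesis genes rose in 6 of 17 and fell in 1, with a median change of 0.085. Fatty acid synthase Fasn (0.57 ± 0.07) and the triglyceride-forming Dgat2 (0.82 ± 0.13) rose without overlap. Cholesterol synthesis genes rose in 7 of 18 and fell in 2, and 4 rose without LCR sham 0441. Iron genes rose in 9 of 15 and fell in 1. The ferrireductase Steap4 (1.79 ± 0.20), the divalent metal importer Slc11a2 (1.30 ± 0.12) and the transferrin receptor Tfrc (1.05 ± 0.089) rose without overlap.

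Acute phase and complement genes rose in 12 of 17 measured. The acute phase carrier Orm1 lay between 5.91 and 15.4 (median 6.89) on sham arrays and between 141 and 417 (median 254) on smoke arrays, a change of 3.47 ± 0.37 (adjusted p = 2.16e-09), dim on every sham array. Serum amyloid Saa3 rose by 1.99 ± 0.23, the complement regulators C4bpa by 1.94 ± 0.17 and Cfi by 1.64 ± 0.28, and C3 read 1202 to 2058 (median 1525) on sham arrays and 3579 to 4735 (median 4300.3) on smoke arrays, a change of 1.40 ± 0.12 (adjusted p = 1.45e-11). None of these had overlapping groups.

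Genes of airway mucosal defence rose in 8 of 11. Lactoperoxidase (Lpo), which oxidises thiocyanate to kill bacteria, ran from 8.91 to 22.7 (median 13.7) under sham and from 270.2 to 861 (median 562) under smoke, a change of 4.10 ± 0.40 (adjusted p = 3.21e-10). Pendrin (Slc26a4), which exports thiocyanate, bicarbonate and iodide, lay between 13.2 and 44.2 (median 28.8) on sham arrays and between 363 and 701 (median 472) on smoke arrays, a change of 3.44 ± 0.25 (adjusted p = 6.84e-13). Both were dim on every sham array and clear on every smoke array. The chloride channel Cftr rose by 0.99 ± 0.14 and the immunoglobulin carrier Pigr by 0.51 ± 0.039. Bpifb1, a secreted airway protein, rose by 1.501 ± 0.45, with a high value on LCR sham 0442, and lost its call with the interquartile range as covariate (adjusted p = 0.054). In the wider list of ion and water channels 8 of 15 rose and 5 fell. The airway water channel Aqp3 read 8.83 to 15.5 (median 10.8) on sham arrays and 36.8 to 173 (median 102) on smoke arrays, a change of 1.97 ± 0.22 (adjusted p = 5.51e-09), while Aqp5, of alveolar type 1 cells and glands, fell (-0.40 ± 0.078).

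Matrix metalloproteinases and their inhibitors rose in 6 of 18 and fell in 4, not far from the 22.7% and 27.9% of all genes. Macrophage elastase (Mmp12) ran from 24.2 to 64.9 (median 34.2) under sham and from 195 to 1011 (median 380.0) under smoke, a change of 2.99 ± 0.39 (adjusted p = 1.08e-07), and the inhibitor Timp1 rose by 0.73 ± 0.094, both without overlap. Timp4 fell (-0.51 ± 0.08). Antiproteases rose in 7 of 14 and fell in 3. The cathepsin inhibitor Cstb rose by 0.67 ± 0.061, and Serpina1, the inhibitor of neutrophil elastase made mainly in liver, lay between 75.3 and 180.4 (median 109) on sham arrays and between 40.4 and 99.9 (median 55.1) on smoke arrays, a change of -0.86 ± 0.20 (adjusted p = 0.000511), with overlap.

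Prostaglandin and growth factor genes also moved. In the eicosanoid list 10 of 22 rose and 1 fell. Cyclooxygenase 2 (Ptgs2) read 8.06 to 21.1 (median 11.8) on sham arrays and 23.6 to 163 (median 68.6) on smoke arrays, a change of 1.63 ± 0.21 (adjusted p = 7.45e-08), and the prostaglandin E synthase Ptges rose by 1.49 ± 0.23. Hpgd, which inactivates prostaglandin E, was the member that fell, (-0.77 ± 0.17). The lipoxygenase Alox15 rose by 1.28 ± 0.29. Of EGF receptor genes and ligands 6 of 12 rose and 2 fell. The ligands Areg (1.43 ± 0.35), Ereg (0.91 ± 0.19) and Tgfa (0.31 ± 0.063) rose with overlap, and the receptor Erbb2 fell (-0.41 ± 0.068) without it.

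Proliferation genes rose. Of 40 cell cycle and replication genes 26 rose, 2 fell, and in 16 the groups did not overlap, with a median change of 0.30. Over all genes 22.7% rose, 27.9% fell and 14.5% had groups that did not overlap. The mitotic kinase Cdk1 ran from 35.4 to 49.8 (median 38.3) under sham and from 61.0 to 116 (median 84.9) under smoke, a change of 0.86 ± 0.10 (adjusted p = 1.26e-08). The proliferation marker Mki67 rose by 0.69 ± 0.12 and cyclin Ccnb2 by 0.76 ± 0.11. Which cells divide cannot be read from whole lung. Of 20 p53 response genes 7 rose and 3 fell. The stress cytokine Gdf15 rose by 0.96 ± 0.20, and Phlda3, a p53 target that restrains Akt, fell (-0.65 ± 0.087). Immediate early genes rose in 7 of 24 and fell in 2, with a median change of 0.077, so the share that rose was not far from the 22.7% of all genes. Nr4a3 rose by 1.13 ± 0.22 and Myc by 0.83 ± 0.11.

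Lymphocyte genes were lower. Of 12 B cell genes 8 fell and 1 rose. Without LCR sham 0440, LCR sham 0442 and LCR smoke 0420 together, the arrays with heart muscle signal, 5 fell. Bank1, a B cell scaffold protein, showed the largest fall of any gene. It lay between 196 and 286 (median 230.2) on sham arrays and between 31.6 and 89.4 (median 54.5) on smoke arrays, a change of -1.82 ± 0.15 (adjusted p = 1.76e-11). The IgM receptor Fcmr fell (-0.86 ± 0.17) without overlap, and Ms4a1 (CD20) (-0.74 ± 0.20) with it.

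Of 20 T cell genes 11 fell and 2 rose. Cd3e, a subunit of the T cell receptor complex, read 112 to 198 (median 148) on sham arrays and 96.1 to 151 (median 108) on smoke arrays, a change of -0.41 ± 0.11 (adjusted p = 0.00338). Its groups overlapped, as did those of Cd3g (-0.51 ± 0.13), Cd247 (-0.56 ± 0.11) and Cd8a (-0.76 ± 0.17). Tcf7, a transcription factor of naive and memory T cells, fell (-0.76 ± 0.10) without overlap, and the IL-7 receptor Il7r rose by 0.60 ± 0.10. Of 16 cytotoxic lymphocyte genes 7 fell and 1 rose, with 11 falls under array weights. The granule protein Nkg7 fell (-0.68 ± 0.19) and the transcription factor Eomes (-0.53 ± 0.086), both with overlap.

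Interferon response genes fell in 10 of 23 and rose in 1, or fell in 6 with the interquartile range as covariate. Ifi44l fell (-0.63 ± 0.14). The antiviral GTPase Mx2 fell (-0.85 ± 0.20) on its brighter probe set, and the call was lost when its 2 probe sets were averaged (-0.44 ± 0.37, adjusted p = 0.321). MHC class II genes, which present antigen, went up in 7 of 8. RT1-DMa (0.84 ± 0.087) and RT1-DMb (0.74 ± 0.088), which load peptide, and the invariant chain Cd74 (0.28 ± 0.027) rose without overlap. Class I and peptide loading genes rose in 4 and fell in 3 of 14, not far from the 22.7% and 27.9% of all genes.

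The alveolar epithelium moved in opposite directions by cell type. Of 12 genes of type 2 cells, which make surfactant, 9 rose, with 5 rises when the 3 arrays with heart muscle signal were left out together. The collectin Sftpd ran from 3545 to 4604 (median 3966) under sham and from 5108 to 5873 (median 5419) under smoke, a change of 0.43 ± 0.053 (adjusted p = 3.66e-08). The lamellar body protein Lamp3 rose by 0.60 ± 0.074 and the surfactant-processing protease Napsa by 0.48 ± 0.092. Sftpc, near the top of the scale, had a change of 0.064 ± 0.019 (adjusted p = 0.00479), and its call was lost with quantile normalization (adjusted p = 0.738) and without the 3 arrays (0.0615). Of 14 genes of the flat type 1 cells 10 fell and 1 rose, or 6 fell with the interquartile range as covariate. The receptor Ager lay between 4269 and 5179.5 (median 5039) on sham arrays and between 3679 and 4627 (median 4120.3) on smoke arrays, a change of -0.24 ± 0.054 (adjusted p = 0.000425), with overlap, and the chloride channel protein Clic5 fell (-0.37 ± 0.081).

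Vascular genes fell. Of 22 endothelial genes 15 fell. Angiotensin-converting enzyme (Ace), abundant on lung capillaries, read 2151 to 2985 (median 2669) on sham arrays and 1537 to 1935 (median 1728) on smoke arrays, a change of -0.58 ± 0.06 (adjusted p = 1.13e-09). Endomucin (Emcn) fell (-0.77 ± 0.14) and the angiopoietin receptor Tek (-0.57 ± 0.069), all without overlap. Outside the endothelial list, the arterial gap junction gene Gja4 ran from 455 to 892 (median 547) under sham and from 203 to 277 (median 243) under smoke. Its change was -1.21 ± 0.11 (adjusted p = 7.07e-11). In the Notch and VEGF pathway 12 of 25 fell and 2 rose. The ligand Vegfa fell (-0.44 ± 0.059), the Notch ligand Dll4 (-0.69 ± 0.13), and the Notch effectors Hey1 (-0.59 ± 0.12) and Hey2 (-0.78 ± 0.13).

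**Figure D4:**
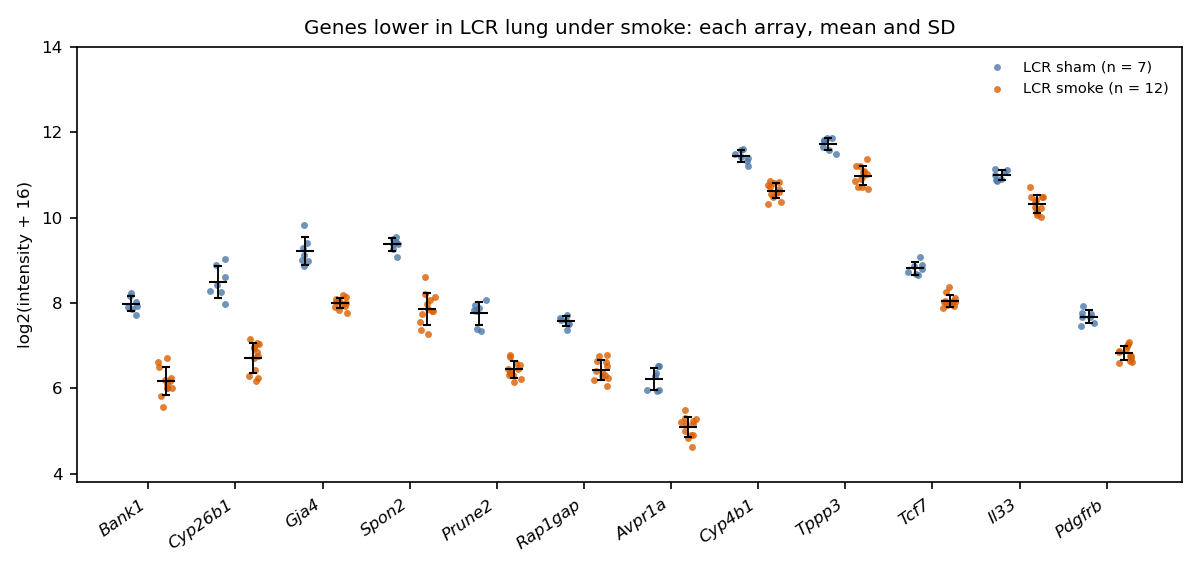
Log2(intensity + 16) on each of the 7 LCR sham and 12 LCR smoke arrays for 12 genes that fell, with the group mean and SD as bars. Smoke arrays lie below sham arrays in all 12, and Bank1 (-1.82) and Cyp26b1 (-1.78) changed most.

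Mural and matrix genes fell too. Of 18 pericyte and smooth muscle genes 12 fell and 1 rose. Smooth muscle myosin Myh11 lay between 672 and 1475 (median 784) on sham arrays and between 275 and 661 (median 444) on smoke arrays, a change of -0.999 ± 0.22 (adjusted p = 0.000325), or by -0.61 ± 0.15 with its 2 probe sets averaged. The pericyte receptor Pdgfrb fell (-0.86 ± 0.075), or by -0.46 ± 0.05 over its 3 probe sets, and Tagln (-0.84 ± 0.21). The member that rose was Mcam (0.48 ± 0.064), an adhesion molecule that endothelium also carries. Of 32 fibroblast and matrix genes 16 fell. The matrix protein Spon2 read 527 to 738 (median 655) on sham arrays and 138 to 377 (median 212) on smoke arrays, a change of -1.51 ± 0.24 (adjusted p = 3.88e-06). Inmt, a methyltransferase of lung fibroblasts, fell (-1.01 ± 0.19), elastin (Eln) (-0.84 ± 0.23) and the lipofibroblast factor Tcf21 (-0.62 ± 0.13), each with overlap.

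In the Wnt pathway 13 of 25 genes fell and 2 rose. The ligand Wnt7a fell (-0.74 ± 0.13), and the secreted antagonist Sfrp2 (-1.22 ± 0.36), a call lost without the 3 arrays with heart muscle signal (adjusted p = 0.0648). Of 25 TGF-beta and BMP genes 7 rose and 8 fell, near the 22.7% and 27.9% of all genes. The receptor Tgfbr1 rose by 0.73 ± 0.076 without overlap. Several of the deepest falls belonged to no list. The Notch-like protein Dlk1 fell (-1.79 ± 0.29), the amino acid transporter Slc6a15 (-1.40 ± 0.36), and the non-coding Meg3 (-1.08 ± 0.16), all with overlap. The Rap1 inhibitor Rap1gap ran from 149 to 197 (median 178) under sham and from 51.0 to 94.6 (median 68.1) under smoke, a change of -1.14 ± 0.10 (adjusted p = 1.98e-11), and the vasopressin receptor Avpr1a fell (-1.13 ± 0.13), both with separate groups.

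Of 19 clock genes 4 rose and 3 fell, neither share being above the 22.7% and 27.9% of all genes. The activator Npas2 lay between 67.4 and 198 (median 151) on sham arrays and between 20.8 and 89.2 (median 47.5) on smoke arrays, a change of -1.26 ± 0.22 (adjusted p = 1.38e-05). The repressors Per1 and Per2 went opposite ways, at -0.78 ± 0.22 and 0.85 ± 0.23. The repressors Bhlhe41 and Bhlhe40 rose by 1.04 ± 0.13 and 0.61 ± 0.15. The labels give no hour of collection, so hour and group cannot be told apart. Of 16 glucocorticoid-responsive genes 7 rose and 4 fell, and the chaperone partner Fkbp5 read 135 to 175 (median 153) on sham arrays and 153 to 545 (median 288) on smoke arrays, a change of 0.91 ± 0.23 (adjusted p = 0.00137), with overlap.

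In energy metabolism, 12 of 27 genes of glycolysis and the hypoxia response were higher and 5 lower, with 3 falls on median-centred arrays and with the interquartile range as covariate. Lactate dehydrogenase Ldha ran from 1449.8 to 1759 (median 1695) under sham and from 2209 to 2771 (median 2484) under smoke, a change of 0.59 ± 0.062 (adjusted p = 1.44e-09), and the lactate exporter Slc16a3 rose by 1.11 ± 0.14, both without overlap. Few respiratory chain genes moved, with 4 higher and 1 lower of 39, though 12 were higher on median-centred arrays and 11 without the 3 arrays with heart muscle signal. Of 20 citrate cycle genes 4 were higher and 4 lower, or 8 and 1 on median-centred arrays. The mitochondrial coactivator Ppargc1a lay between 84.5 and 126 (median 95.3) on sham arrays and between 43.0 and 63.4 (median 54.6) on smoke arrays, a change of -0.73 ± 0.09 (adjusted p = 3.2e-08).

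Whether the response was particular to low capacity runners was asked by testing the LCR change minus the HCR change. In HCR, 6830 genes passed (48%), 2513 (17.7%) higher and 4317 (30.4%) lower. The difference itself passed for 266 genes (1.87%), above 0 in 216 (1.52%) and below 0 in 50 (0.352%), and 218 of them were also called in LCR. The count was 103 without LCR sham 0445, 114 without LCR sham 0441, 152 without LCR sham 0442, 170 without LCR smoke 0429 and 417 without LCR smoke 0420. Heart muscle list means over 0.5 log2 above the mean of all arrays were also found on 2 HCR sham and 5 HCR smoke arrays, up to 3.79, and the skeletal muscle list stood 4.30 above that mean on HCR sham 0433. Without these HCR arrays the count was 325. With array weights it was 1537, with the Actb difference as covariate 629 and with the Gapdh difference 562. In every alternative that tested them, 55 of the genes passed, 48 above 0 and 7 below, of which 5 were too dim to be tested when low genes were left out. Single HCR arrays were not left out in turn, so how far these differences rest on any of them was not tested. Of the 66 gene lists, 8 held at least 2 genes whose difference passed. These were lysosomal membrane and proton pump genes (4 of 23), cathepsins and hydrolases (3 of 22), T cell genes (3 of 20), macrophage genes (2 of 18), glutathione S-transferases (2 of 18), cholesterol synthesis (2 of 18), fatty acid synthesis (2 of 17) and glycolysis and hypoxia (2 of 27). A further 12 lists held 1 such gene and 46 held 0 by this limma test. The latter include the AhR, NRF2 target, ELR chemokine, neutrophil, endothelial and cell cycle lists, where 23 of 103 members (22.3%) had an unadjusted p under 0.05, against 18.7% of all genes.

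Among genes that rose in LCR with a difference above 0, 39 also rose in HCR, 104 were not called there, and 27 fell there. The 10 differences furthest above 0 among genes called in LCR were those of Fkbp5, Mro, Krt79, Kcnmb4, Chodl, Slc7a7, Plet1, Slc47a1, Mab21l3 and Fetub, and the 10 furthest below were those of Pcp4l1, Mnda, Pik3c2b, Prune2, Cxcl12, Cd3g, Shc2, Cd247, Bcl11b and Lck. Of these 20, 6 passed in every alternative that tested them (Mro, Plet1, Mab21l3, Fetub, Pik3c2b and Prune2), and Mro and Mab21l3 were not tested when low genes were left out.

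Mro, a gene of little known function, read 9.15 to 21.6 (median 13.8) on sham arrays and 38.2 to 93.5 (median 64.5) on smoke arrays, with a change of 1.36 ± 0.15 in LCR and 0.24 ± 0.15 (not called) in HCR (difference 1.12 ± 0.21, adjusted p = 0.00812). The surface protein Plet1 ran from 563 to 1074 (median 677) under sham and from 1933 to 2749 (median 2364) under smoke, changing by 1.68 ± 0.12 in LCR and 0.86 ± 0.12 in HCR (difference 0.82 ± 0.16, adjusted p = 0.00924). These genes rose in LCR with no overlap between groups. Mab21l3 changed by 1.28 ± 0.10 and 0.47 ± 0.10 (difference 0.80 ± 0.14, adjusted p = 0.00221), and the protease inhibitor Fetub by 1.48 ± 0.11 and 0.70 ± 0.11 (difference 0.79 ± 0.15, adjusted p = 0.00924). Prune2 lay between 146 and 253 (median 214) on sham arrays and between 55.3 and 93.6 (median 69.7) on smoke arrays, with a fall in LCR (-1.31 ± 0.11) past that in HCR (-0.57 ± 0.11; difference -0.74 ± 0.16, adjusted p = 0.0169). The phosphoinositide kinase Pik3c2b changed by -0.59 ± 0.092 in LCR and 0.22 ± 0.092 in HCR (difference -0.81 ± 0.13, adjusted p = 0.00221), or differed by -0.41 with its 2 probe sets averaged.

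Fkbp5, which responds to glucocorticoids, had the highest difference among genes called in LCR. It rose in LCR and changed by -0.44 ± 0.23 (not called) in HCR (difference 1.35 ± 0.33, adjusted p = 0.0286), and without LCR sham 0445 the difference did not pass (adjusted p = 0.0515). The T cell receptor gene Cd247 changed by -0.56 ± 0.11 in LCR and 0.055 ± 0.11 (not called) in HCR (difference -0.62 ± 0.16, adjusted p = 0.0335), and its difference did not pass without LCR sham 0441 (adjusted p = 0.0691) or LCR sham 0442 (0.0514), or without the 3 LCR arrays with heart muscle signal (0.0671). Members of the gene lists that passed in every alternative included Fasn, at 0.57 ± 0.07 in LCR and -0.019 ± 0.07 (not called) in HCR (difference 0.59 ± 0.10, adjusted p = 0.00221), Tgfa, at 0.31 ± 0.063 and -0.22 ± 0.063 (difference 0.53 ± 0.088, adjusted p = 0.00221), and Mgst2, at 0.59 ± 0.051 and 0.17 ± 0.051 (difference 0.42 ± 0.072, adjusted p = 0.00235).

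**Figure D5:**
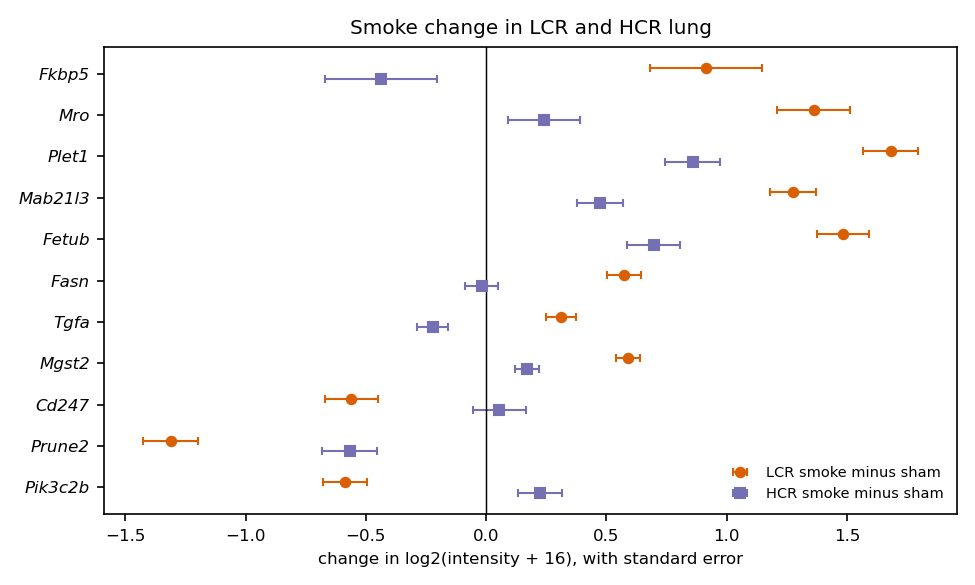
Smoke minus sham change in log2(intensity + 16), with its standard error, in LCR (12 smoke, 7 sham arrays) and HCR (12 smoke, 7 sham arrays) for 11 genes whose change differed between the lines. All 11 points lie further from 0 in LCR than in HCR. These genes were taken from those called in LCR, which favours a larger LCR change. The 48 differing genes not called in LCR are not shown, so the figure does not rank the lines by strength of response.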

How the data were processed

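Lung RNA was hybridised to Affymetrix Rat Genome 230 2.0 arrays, 1 per animal, after column extraction and an integrity check, per the labels' protocols. The authors deposited 1 table of intensities on a linear scale (2.09 to 11558) with 31099 probe sets as its features. How these were summarised and normalized, and with which software, is not given in the sources. No further normalization was applied, and values were analysed as log2(intensity + 16). Controls (57) were dropped; the platform annotation gave a single symbol to 20826 features, several to 436 and none to 9780. The gene ID of 20758 was found in the RefSeq gene table. The brightest probe set of each symbol, by its mean over all arrays, stood for the gene (14217 genes, 4525 with more than 1 probe set).

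Groups came from the array titles. Each group holds its own run of array numbers, and a batch in that order cannot be told apart from the group. The labels name separate animals as replicates. Correlations between LCR arrays were 0.962 to 0.997, and at most 0.0422% of genes held identical values on 2 arrays. limma 3.58.1 (lmFit and eBayes, moderated, two-sided) in R 4.3.3 fitted the 4 group means over all 38 arrays (34 residual degrees of freedom), with Benjamini-Hochberg adjustment over all genes and a threshold of 0.05. Adjusted p-values of genes come from this limma fit. On simulated data for the LCR comparison (14217 genes), 96% of genes changed by 0.5 log2 and 99% of those changed by 1 were recovered. Of the calls made there, 4.41% were false. In the simulation genes varied independently and few were changed, whereas 50.6% were called on the measured arrays. The shares hold for the simulated setting only. Recovery on the measured arrays, whose medians and interquartile ranges differed between groups, was not tested. Array measures were compared by exact permutation tests in SciPy 1.17.1, with Python 3.11.15, NumPy 2.4.6 and pandas 2.3.3; figures were drawn with matplotlib 3.10.9.

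The members, the 66 gene lists, written from textbook knowledge, and the tests were chosen with earlier results of these data known. Lists are described by counts and medians without a test. The rule for names took, in either direction, the 20 largest changes, from each list at most 4 called genes by size and 2 by p, the 10 largest line differences per direction and a set of sentinel genes; Adgre1, Cd163, Cyp1a2, Gclc, Gclm, Il1b, Muc5b, Ppbp, Scgb3a1 and the genes named only for a promoter match were chosen after their values were seen. Promoter windows are RefSeq's (GRCr8), the listed start of each gene. Their coordinates belong to that build, not to the arrays. The number of arrays limits the precision.

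Each choice was also changed on its own: quantile normalization or centring each array on its median; dropping genes with a mean under 6 log2; averaging probe sets; adding 1 in place of 16; fitting the LCR arrays alone; weighting arrays; letting the variance follow intensity, robustly; adding the Gapdh or Actb 3' minus 5' difference or the interquartile range as covariate; and leaving out each LCR array. Leaving out together the LCR arrays, or the HCR arrays, with heart muscle signal was chosen after seeing the data.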

Additional observations from a re-analysis of the deposited data

Results flagged for a closer look

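A gene was listed here where the highest or lowest of the 7 LCR sham arrays stood apart from the other 6 by Dixon's criterion, which chance meets in about 1 of 20 groups. The 12 LCR smoke arrays were not examined this way. Values are log2(intensity + 16), with the range of the other sham arrays. Every gene listed is among the 204 genes with values here, so the count does not speak for the other measured genes. Chance alone would be expected to list some of the 204. LCR sham 0442 was the array in 15 of 22 cases. Of these, Gclc, Muc5b and Scgb3a1 were chosen for naming after their values were seen, so this share is partly selected. It was high for Bpifb1 (8.41, others 4.73 to 5.79), Ccl20 (8.78, others 5.19 to 6.73), Fcmr (8.36, others 7.45 to 7.81), Gclc (7.65, others 7.24 to 7.41), Gsta3 (7.18, others 5.81 to 6.28), Mmp12 (6.34, others 5.33 to 5.75), Muc5b (9.13, others 5.77 to 6.10), Nr4a3 (5.99, others 5.14 to 5.49), Orm1 (4.97, others 4.45 to 4.55), Pln (9.34, others 5.89 to 6.73), Rdh10 (7.25, others 6.65 to 6.90) and Scgb3a1 (11.52, others 7.79 to 8.83), and low for Edem1 (9.36, others 9.63 to 9.79), Pmp22 (11.40, others 11.56 to 11.68) and Vegfa (10.41, others 10.66 to 10.83). LCR sham 0440 was high for Emcn (11.52, others 10.64 to 11.01) and Lcn2 (9.11, others 5.05 to 5.97), LCR sham 0443 for Areg (6.78, others 4.46 to 5.42) and Cdk1 (6.04, others 5.68 to 5.83), LCR sham 0441 for Cd247 (7.29, others 6.71 to 6.92), LCR sham 0446 for Cx3cr1 (5.67, others 5.34 to 5.48) and LCR sham 0444 for Cxcl6 (5.42, others 4.55 to 4.92). Heart muscle genes also peaked on LCR sham 0442 (list mean 4.20), and the part of that tissue in these values was not tested.

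The smoke change differed between the lines by the limma test of the difference in these reported genes, with the LCR change minus the HCR change in brackets: Fkbp5 (1.35), Mro (1.12), Plet1 (0.82), Mab21l3 (0.80), Fetub (0.79), Fasn (0.59), Tgfa (0.53), Mgst2 (0.42), Cd247 (-0.62), Prune2 (-0.74) and Pik3c2b (-0.81). The differences of Fkbp5 and Cd247 lost their calls without single sham arrays, as given with their values.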

How the results depend on the processing

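The 7193 genes called in LCR became 6605 to 7255 with 1 array left out and 5505 to 7814 under the other alternatives. Genes called higher numbered 2131 with low genes left out, where fewer genes were tested, and 4829 on median-centred arrays, where 61.9% of calls were higher against 44.8%. A pseudocount of 1 gave 1169 genes at 1.5-fold and 259 at 2-fold, since it does not damp dim genes. The 266 genes whose change differed between lines became 103 to 417 with 1 LCR array left out, 1537 with array weights, 562 with the Gapdh and 629 with the Actb covariate, and the cause was not tested. Of 197 called genes with values here, 188 kept their call in every one of the 32 alternatives that tested them (16 of these were too dim to be tested with low genes left out) and 9 lost it in at least 1 (Bpifb1, Cd163, Cyp1a2, Cyp2a3, Mx2, Pln, Scgb1a1, Sfrp2 and Sftpc). Most of the 197 were named for a large change or a small p in these same data. Their count therefore does not speak for the other called genes. No paired analysis was possible because the groups share no array number. Signal over background limits dim genes such as Cyp1a2, whose changes the added 16 damps.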

Other observations

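The remaining gene lists were read in the same way, beside 22.7% of all genes higher and 27.9% lower. Genes of the unfolded protein response rose in 9 of 22 and fell in 3. Edem1, which marks misfolded proteins for degradation, rose by 0.55 ± 0.071 (adjusted p = 9.16e-08), asparagine synthetase Asns by 0.36 ± 0.059, Sdf2l1 by 0.42 ± 0.13 and the transcription factor Xbp1 by 0.24 ± 0.044. Of 14 heat shock and chaperone genes 3 were higher and 1 lower, with the co-chaperones Dnaja1 at 0.47 ± 0.12 and Dnajb1 at 0.42 ± 0.10. Among 25 fatty acid oxidation genes, 5 were higher and 4 lower. The trifunctional enzyme subunit Hadhb rose by 0.31 ± 0.058, and the isomerase Eci1 fell (-0.32 ± 0.06), or changed by -0.15 ± 0.03 with its 2 probe sets averaged. Homeostatic chemokine and receptor genes rose in 4 and fell in 2 of 10. Beside Cx3cl1, its receptor Cx3cr1 rose by 0.36 ± 0.083 and Cxcl16 by 0.30 ± 0.05. Plasma cells were read from 6 genes, 2 higher and 3 lower, and mast cells and eosinophils from 15, 1 higher and 2 lower. The stem cell factor receptor Kit, of mast cells, read 75.2 to 255 (median 124) on sham arrays and 46.1 to 104.9 (median 70.8) on smoke arrays, a change of -0.75 ± 0.20 (adjusted p = 0.00253). Gata2, a transcription factor of mast cells and of endothelium, ran from 542 to 777 (median 604) under sham and from 341 to 485 (median 422) under smoke, a change of -0.53 ± 0.086 (adjusted p = 4.56e-06), or -0.25 ± 0.05 with its 2 probe sets averaged. The groups overlapped in Kit and were separate in Gata2.

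Among markers of tissues that a lung sample may carry along, 1 of 12 heart muscle genes, 1 of 10 fat cell genes and 2 of 7 nerve genes were lower under smoke, 1 nerve gene was higher, and 2 of 5 red blood cell genes were higher. The heart muscle gene was phospholamban (Pln), at -0.94 ± 0.39 (adjusted p = 0.0422). It lost its call with quantile normalization, with the Actb covariate, without LCR sham 0442 (adjusted p = 0.223), 0443 or 0444, without LCR smoke 0423, 0425, 0426, 0427 or 0429, and without the 3 arrays with heart muscle signal (0.255). The fat cell gene was hormone-sensitive lipase (Lipe), which lay between 299 and 419 (median 368) on sham arrays and between 149 and 209 (median 182) on smoke arrays, a change of -0.95 ± 0.10 (adjusted p = 1.52e-09), or -0.35 ± 0.07 with its 2 probe sets averaged. The myelin gene Pmp22, which other lung cells also express, fell (-0.36 ± 0.042), and the red cell anion exchanger Slc4a1 rose by 0.61 ± 0.10. The 5 mesothelial genes and 12 skeletal muscle genes had median changes of 0.0096 and -0.014, and the 12 heart muscle genes one of -0.91. The heart muscle list mean had a median of -0.690 on sham and -0.855 on smoke arrays, with LCR sham 0442 at 4.202. The single measured thymus gene, Cd1d1, fell (-0.29 ± 0.062), or changed by -0.14 with the interquartile range as covariate.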
